A study of Homo sapiens with 4 samples.

Results

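Cholesterol and terpenoid synthesis genes, 34 of the 61544 genes in the count table, were taken by their symbols. The list was drawn up with earlier results of these data known, and no measured value enters the rule itself. All 34 were found and had counts in each of the 4 libraries. The lines HT29 and HCT116 were derived from human colorectal tumours of the epithelium. Lipopolysaccharide (LPS) makes up the outer membrane of Gram-negative bacteria and is sensed by Toll-like receptors. RNA was sequenced from an untreated HT29 control, HT29 kept for 24 h in LPS at 1 ug/mL, an untreated HCT116 control and HCT116 with the same LPS treatment. Each condition had 1 library, all cells were grown in medium with fetal bovine serum, and each line stands for the cells of a single tumour. Total counts ran from 19105058 to 21268959, and the counts of the 34 genes ran from 96 for FNTB to 19479 for SQLE. Of 8 epithelial marker genes, KRT20 was at 0 in every library, VIL1 reached 2637 and 3004 counts in the HT29 libraries but only 4 and 0 in those of HCT116, and CDX2 reached 18 and 39 against 474 and 572. The other 5 were abundant in all libraries.

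Human cells make isoprenoids by the mevalonate pathway. In it, acetyl-CoA units are joined and reduced to mevalonate and then converted to a small activated isoprene unit. Isoprene units are joined into farnesyl and geranylgeranyl diphosphate, from which the cell makes squalene and then cholesterol, but also dolichol for protein glycosylation, the side chain of ubiquinone, and the prenyl anchors of membrane proteins such as the Ras family. The sterol regulatory element-binding proteins (SREBPs) are membrane-bound transcription factors. The escort protein SCAP carries them to the Golgi for cleavage when membrane sterol is low, and the INSIG proteins hold SCAP in the endoplasmic reticulum when sterol is plentiful. INSIG1 and most enzymes of sterol synthesis are themselves known targets of the SREBPs.

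The promoters of 4 genes are shown. They belong to SREBF2, which encodes the SREBP that acts mainly on sterol genes, and to INSIG1, HMGCS1 and EBP, from 3 different roles, whose values recur in the results. Windows ran from 250 bases before to 50 bases after a RefSeq transcript start on GRCh38.p14 and are written 5′ to 3′ on the strand of the gene. Capitals mark matches on either strand to the sterol regulatory element, searched as TCACNCCAC, and to the CCAAT box, searched as CCAAT and found as ATTGG on the other strand.
SREBF2, chr22:41832855-41833154, plus strand: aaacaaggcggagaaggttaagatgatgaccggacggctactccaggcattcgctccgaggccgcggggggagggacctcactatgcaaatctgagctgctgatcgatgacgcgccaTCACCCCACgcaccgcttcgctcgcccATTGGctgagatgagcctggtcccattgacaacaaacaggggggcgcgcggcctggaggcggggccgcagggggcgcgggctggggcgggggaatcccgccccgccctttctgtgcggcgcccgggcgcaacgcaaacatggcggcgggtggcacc
INSIG1, chr7:155297628-155297927, plus strand: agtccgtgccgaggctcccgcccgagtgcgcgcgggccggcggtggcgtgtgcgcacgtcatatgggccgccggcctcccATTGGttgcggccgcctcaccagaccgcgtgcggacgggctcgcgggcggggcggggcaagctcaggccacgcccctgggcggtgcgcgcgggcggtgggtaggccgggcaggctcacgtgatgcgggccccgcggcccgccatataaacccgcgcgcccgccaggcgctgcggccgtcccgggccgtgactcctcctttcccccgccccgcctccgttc
HMGCS1, chr5:43313363-43313662, minus strand: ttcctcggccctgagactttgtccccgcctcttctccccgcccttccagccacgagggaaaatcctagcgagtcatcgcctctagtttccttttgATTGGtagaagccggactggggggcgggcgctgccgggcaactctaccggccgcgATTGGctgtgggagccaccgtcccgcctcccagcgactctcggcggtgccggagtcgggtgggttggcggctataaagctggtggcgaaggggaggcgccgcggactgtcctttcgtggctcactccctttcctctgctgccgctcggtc
EBP, chrX:48521558-48521857, plus strand: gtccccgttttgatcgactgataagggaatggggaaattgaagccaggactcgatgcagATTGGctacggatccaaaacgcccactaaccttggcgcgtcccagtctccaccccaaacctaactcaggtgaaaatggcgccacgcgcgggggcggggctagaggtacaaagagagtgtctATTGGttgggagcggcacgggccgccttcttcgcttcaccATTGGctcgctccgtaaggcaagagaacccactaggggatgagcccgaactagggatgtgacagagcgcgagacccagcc
RefSeq gave 38 windows for 30 of the 34 genes, and all 38 equalled the hg38 sequence. ACAT2, FDFT1, SQLE and FNTA had no entry. TCACNCCAC was matched in 1 of the 38 windows, that of SREBF2, against 1.13% of all 35116 windows. A CCAAT match was present in 22 of 38 windows (57.9%), against 34.6% of all windows and 34.5% of the windows of genes abundant enough to be tested. By gene it was present in 20 of 30, and no share over all genes was computed for that count. Windows of the same gene can overlap and hold the same match, as those of SC5D do. The other HMGCS1 window, not shown, had no CCAAT match. The Sp1 box, searched as GGGCGG, lay in 92.1% of the members' windows, 45.0% of all windows and 66.0% of those of tested genes. The E-box CACGTG lay in 18.4%, 7.26% and 9.20% of them. The longer, full form of the sterol regulatory element was also searched. It contains the shorter form and was matched at the same place in SREBF2 and in 0.0456% of all windows. No other searched motif is contained in another, and a match describes the sequence and is not a measured binding site.

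Levels are given as CPM, the count of a gene relative to the total of its library, after TMM normalization, which scales the libraries on the assumption that most genes do not differ, and are divided by the exonic length in kb wherever genes are compared with each other. SQLE, the squalene epoxidase that adds the oxygen of the sterol ring, was the most abundant of the 34 genes in HT29, with 250.1 CPM per kb in the control and 228 with LPS. DHCR7, the reductase of the last step to cholesterol, had 94.2 and 94.9 CPM per kb there, and NSDHL, a dehydrogenase that removes methyl groups from the sterol ring, had 66.4 and 68.3. The order differed in HCT116, where FDFT1, the squalene synthase, was the highest gene of the control with 65.7 CPM per kb and SREBF1, which encodes the SREBP of fatty acid and sterol genes, was the highest with LPS at 65.9. In the HCT116 libraries SQLE ranked 6 and 7 of the 34, with 42.2 and 36.9 CPM per kb. FNTA and FNTB, the subunits of the farnesyltransferase, were among the 4 least abundant genes in all libraries, between 1.41 and 3.92 CPM per kb. Lengths are those of all annotated exons, not of the transcripts present. The plot of levels shows that the pair of libraries of a line lay close together for nearly all genes, while the lines often lay apart.

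**Figure D1:**
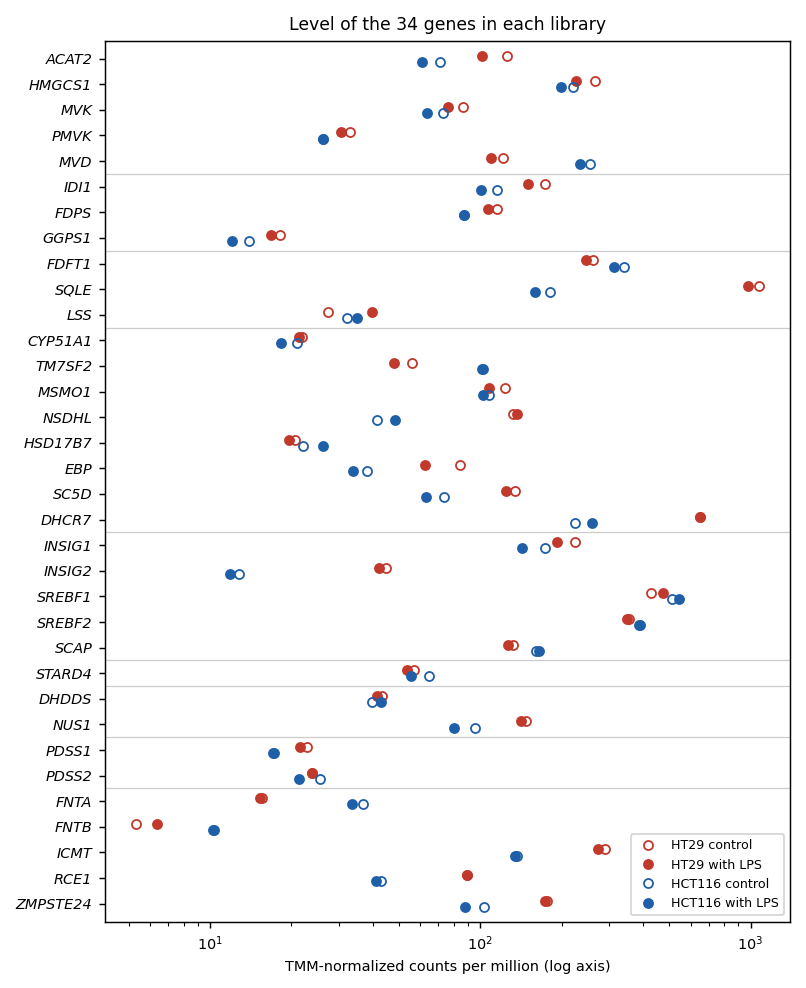
Level of each of the 34 genes in TMM-normalized CPM on a log axis, with 1 point per library (open, control; filled, LPS; red, HT29; blue, HCT116) and grey lines between roles in the pathway. SQLE lies at 981 and 1077 in the HT29 libraries and between 159 and 181 in both HCT116 libraries.

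The LPS library of each line was compared with its control. With 1 library per condition, an effect of LPS cannot be told apart from a difference between cultures. Most genes were slightly lower with LPS in both lines, and no gene was past a log2 ratio of 0.58 in either direction. The log2 ratio was below 0 for 28 of 34 genes in HT29 and above 0 for 6, against 51.8% and 48.2% of the 13201 genes measured there. In HCT116 it was below 0 for 26 and above 0 for 8, against 50.5% and 49.5% of 14337. It was below 0 in both lines for 25 genes, a pattern seen in 30% of all genes, and above 0 in both for 5 genes, against 25.9%. The median log2 ratio was -0.09 in HT29 and -0.11 in HCT116, beside -0.0076 and -0.0025 over all genes, and beside -0.01 in each line over the 9713 genes between 8.06 and 599.6 CPM, the range of the members. Past 0.58 lay 3.5% of all genes upwards and 2.7% downwards in HT29, and 3.56% and 2.34% in HCT116. In the CPM range of the members these shares were only 0.721% and 0.711% in HT29, and 0.596% and 0.298% in HCT116. Finding no member past 0.58 is thus near the share of genes of similar level. In bulk RNA, fewer cells of a kind and less RNA per cell cannot be told apart.

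A line has 1 library per condition and so no replicate check. A 95% Clopper-Pearson interval of the count ratio was used instead, which covers counting error only and not the difference between cultures. The interval lay below 0 for 14 genes and above 0 for 2 in HT29, against 18.5% and 15.9% of all genes. In HCT116 it lay below 0 for 14 genes and above 0 for 4, against 18.2% and 17%. It lay below 0 in both lines for 10 genes: ACAT2, HMGCS1, MVK, MVD, IDI1, FDFT1, SQLE, EBP, SC5D and INSIG1. All genes showed this in 6.34% of cases, and those in the CPM range of the members in 7.15%. SREBF1 alone lay above 0 in both lines, where the share over all genes was 4.41%. Mitochondrial genes made up 3.75% of the untreated and 4.29% of the LPS library of HT29, and 5.01% and 7.16% of those of HCT116. With its genes left out, the medians of the 34 genes were -0.08 and -0.11.

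**Figure D2:**
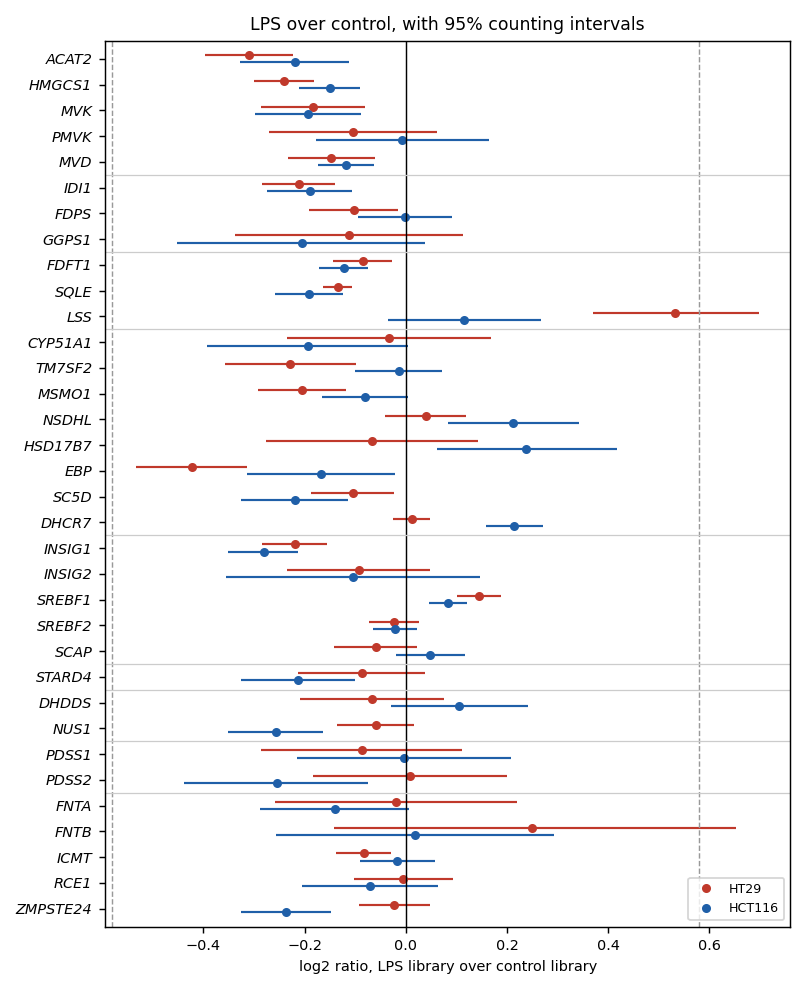
Log2 ratio of LPS over control for each of the 34 genes with HT29 in red and HCT116 in blue, where bars are 95% counting intervals and dashed lines mark a size of 0.58 to either side. Of the 34 points of each line, 28 in HT29 and 26 in HCT116 lie left of 0, and LSS in HT29 lies farthest to the right at 0.53.

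The 5 enzymes of the mevalonate arm were lower with LPS in both lines, and the intervals of 4 lay below 0 in each line, where 18.5% of all genes did so in HT29 and 18.2% in HCT116. ACAT2, the cytosolic thiolase that joins acetyl-CoA units (chr6:159762045-159779112, plus strand), had CPM of 125 without and 101 with LPS in HT29, and of 71.1 and 61.0 in HCT116. It was lower with LPS in both lines, with log2 ratios of -0.31 (interval -0.40 to -0.22) and -0.22 (-0.33 to -0.11). HMGCS1, the HMG-CoA synthase whose promoter is shown above, had 266 and 225 CPM in HT29 and 220.3 and 199 in HCT116. The control was again the higher library in each line, with log2 ratios of -0.24 (-0.30 to -0.18) and -0.15 (-0.21 to -0.09). The kinase MVK had log2 ratios of -0.18 and -0.19 and the decarboxylase MVD -0.15 and -0.12. The kinase PMVK, at 26.1 to 32.8 CPM, had -0.10 (-0.27 to 0.06) and -0.0066 (-0.18 to 0.16), and its interval included 0 in both lines. Exons of other genes cover 22.2% of the ACAT2 exons and 37.7% of those of HMGCS1, all on the opposite strand, and whether the counting used strand is not stated.

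The enzymes that build isoprene chains followed the same direction with less certainty. IDI1, the isomerase that makes the reactive isoprene unit, had 174 and 150.1 CPM in HT29 and 115 and 101 in HCT116. Its log2 ratios were -0.21 (-0.28 to -0.14) and -0.19 (-0.27 to -0.11). FDPS, the farnesyl diphosphate synthase, was lower in HT29 at -0.10 (-0.19 to -0.02), while HCT116 had 87.1 and 87.0 CPM and a log2 ratio of -0.0019. GGPS1, the geranylgeranyl diphosphate synthase, had under 20 CPM in all libraries, and its intervals of -0.34 to 0.11 and -0.45 to 0.04 included 0. Exons of other genes cover 41.0% of the GGPS1 exons, with 37.3% covered on the same strand, so its values are uncertain.

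In the step from farnesyl diphosphate to lanosterol the 3 enzymes did not move together. FDFT1 had 261 and 246 CPM in HT29 and 341 and 313 in HCT116, a log2 ratio of -0.08 (-0.14 to -0.03) and -0.12 (-0.17 to -0.08). SQLE had 1077 and 981 CPM in HT29 and 181 and 159 in HCT116, with ratios of -0.13 (-0.16 to -0.11) and -0.19 (-0.26 to -0.12). Both were lower with LPS in both lines. LSS, the cyclase that folds squalene epoxide into lanosterol, went the other way in HT29, from 494 counts to 787 with LPS (27.4 and 39.6 CPM). Its log2 ratio of 0.53 (0.37 to 0.70) was the highest of the 34 genes there, and it was 0.12 (-0.03 to 0.27) in HCT116, at 32.1 and 34.8 CPM. An alternate contig of hg38 holds a copy of LSS at 100% identity, so reads of LSS may be divided between both places and its values are uncertain.

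The 8 enzymes from lanosterol to cholesterol were mixed, with 4 lower in HT29, 2 lower in HCT116 and 3 higher in HCT116 by their intervals, against 18.5%, 18.2% and 17% of all genes. The 2 of 8 lower in HCT116 are near that share. EBP, the sterol isomerase (chrX:48521799-48528716, plus strand), had CPM of 83.9 without and 62.6 with LPS in HT29, and of 37.9 and 33.8 in HCT116. Its log2 ratio of -0.42 (-0.53 to -0.31) was the lowest of all members in HT29, and it was -0.17 (-0.31 to -0.02) in HCT116, with 36.4% of its exons shared with another gene on the same strand. SC5D, a sterol desaturase, had 134 and 124 CPM in HT29 and 73.3 and 63.0 in HCT116, with ratios of -0.11 and -0.22. TM7SF2, a sterol reductase, was lower in HT29 at -0.23 (-0.36 to -0.10) and had 103 and 102 CPM in HCT116. MSMO1, a sterol monooxygenase, was lower in HT29 at -0.20 (-0.29 to -0.12), and its HCT116 value of -0.08 (-0.16 to 0.0045) was not separated from 0.

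The other enzymes of this branch included 3 that were higher in the HCT116 LPS library. DHCR7 had 223 CPM in the HCT116 control and 259 with LPS, a log2 ratio of 0.21 (0.16 to 0.27), but 648 and 653 in HT29 (0.01, -0.02 to 0.05). NSDHL had 41.6 and 48.2 CPM in HCT116 (0.21, 0.08 to 0.34) and 133 and 136 in HT29 (0.04, -0.04 to 0.12). HSD17B7, a ketosteroid reductase with a near-identical copy at 98.6% identity, had 22.1 and 26.1 CPM in HCT116 (0.24, 0.06 to 0.42) and 20.6 and 19.6 in HT29. In each of the 3 the HT29 interval included 0. CYP51A1, the lanosterol demethylase, lay at 18.4 to 21.8 CPM in all libraries with intervals that included 0, and 74.1% of its exons overlap other genes.

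Genes of SREBP control did not share a direction. INSIG1 (chr7:155297776-155310235, plus strand), the sterol-dependent anchor of SCAP, had CPM of 224 without and 192 with LPS in HT29, and of 174 and 143 in HCT116. It was lower with LPS in both lines, with log2 ratios of -0.22 (-0.28 to -0.16) and -0.28 (-0.35 to -0.21), the latter the lowest of the 34 in HCT116. SREBF1 went the other way, with 428 and 473 CPM in HT29 (0.15, 0.10 to 0.19) and 513 and 543 in HCT116 (0.08, 0.05 to 0.12). SREBF2 was close to its control in both lines, at 355 and 349 CPM in HT29 and 391 and 385 in HCT116, and both intervals included 0. SCAP had intervals of -0.14 to 0.02 and -0.02 to 0.12, and INSIG2, the less abundant INSIG, had log2 ratios of -0.09 and -0.10 that were not separated from 0. With smooth trends of the ratio on gene length and GC content removed, SREBF1 had 0.09 in HT29 and 0.01 in HCT116. SREBF2 then had -0.09 in HCT116, outside its counting interval of -0.07 to 0.02.

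The branches to dolichol, ubiquinone and prenylated proteins and the sterol carrier STARD4 had 1 of 10 genes lower in HT29 and 4 of 10 lower in HCT116 by their intervals, with none higher. Over all genes 18.5% and 18.2% were lower by this measure, so that the HT29 count does not exceed the background. NUS1, a subunit of the dolichol-making cis-prenyltransferase, had 148 and 142 CPM in HT29 (-0.06, -0.14 to 0.02) and 95.6 and 80.0 in HCT116 (-0.26, -0.35 to -0.16), and has a copy at 99.3% identity. ZMPSTE24, the protease that trims prenylated proteins and prelamin A, had 176 and 173 CPM in HT29 (-0.02, -0.09 to 0.05) and 103 and 87.5 in HCT116 (-0.24, -0.33 to -0.15). PDSS2, a subunit of the enzyme that makes the ubiquinone side chain, had 0.01 in HT29 and -0.25 (-0.44 to -0.07) in HCT116. STARD4 was at -0.09 (-0.21 to 0.04) and -0.21 (-0.33 to -0.10). ICMT, the methyltransferase of prenylated proteins, was lower in HT29 by its interval, at -0.08 (-0.14 to -0.03), and had -0.02 (-0.09 to 0.06) in HCT116. DHDDS, the partner of NUS1, PDSS1, FNTA, FNTB and the protease RCE1 had intervals that included 0 in both lines. They were widest for FNTB, which had 96 and 126 counts in the HT29 libraries (0.25, -0.14 to 0.65) and 231 and 214 in those of HCT116 (0.02, -0.26 to 0.29).

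**Figure D3:**
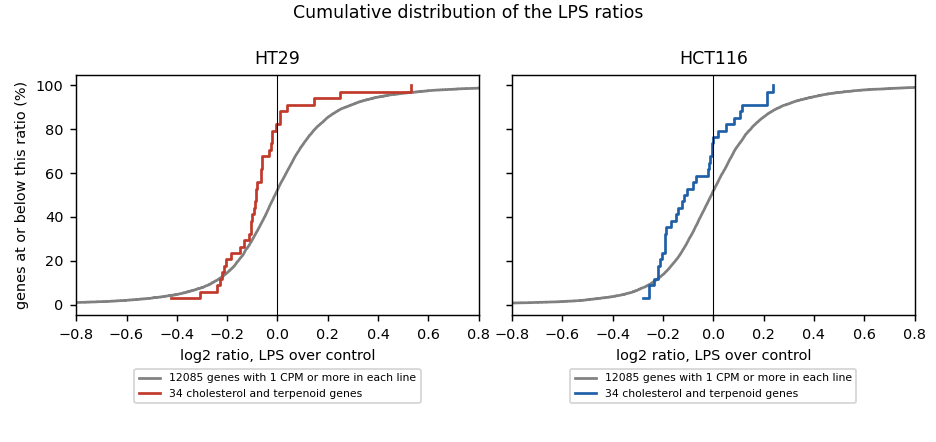
Cumulative percent of genes at or below each log2 ratio of LPS over control, for the 34 genes (coloured steps) and for the 12085 genes with at least 1 CPM in each line (grey), in HT29 and HCT116. The coloured steps lie to the left of the grey curve over most of the range, with 28 of 34 genes below 0 in HT29 and 26 in HCT116.

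The LPS ratio of a gene was set against its ratio in the other line. The counting intervals of the lines did not overlap for 5 genes. EBP and DHCR7 had the lower ratio in HT29, and the EBP intervals of -0.53 to -0.31 and -0.31 to -0.02 all but touched. LSS, NUS1 and ZMPSTE24 had the higher ratio in HT29. Among all genes, 8.2% were apart with the higher value in HT29 and 8.33% with the higher value in HCT116. No gene of the 34 had intervals on opposite sides of 0, against 4.45% of all genes.

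Over both lines, edgeR's quasi-likelihood test, with the line as a block and 1 residual degree of freedom, called 0 of the 34 genes at an adjusted p under 0.05, and called 0.124% of the 14516 genes tested as higher and 0.0964% as lower. The lines stand in for replicates of LPS here, so the p-values rest on how far the LPS change differed between the lines. The variance behind them is in part shared across all genes tested, and they do not measure the spread between cultures. At an unadjusted p under 0.05 there were 9 lower genes (4.05% of all genes) and 1 higher gene, LSS (3.53%). INSIG1 had a log2 fold change of -0.25 ± 0.065 (SE, adjusted p = 0.16 by edgeR), ACAT2 -0.27 ± 0.071 (0.18) and EBP -0.30 ± 0.089 (0.28). DESeq2 gave 23 of the 34 an adjusted p and called INSIG1 as lower (0.0092), where it called 0.728% of genes as lower and 0.91% as higher. With genes under a mean of 5 CPM left out, edgeR called INSIG1 (adjusted p = 0.027), ACAT2 (0.036) and EBP (0.043) as lower. Over all genes it then called 58 as lower and 78 as higher. Each of the 3 members was lower in both lines, but the test itself favours genes whose LPS change is alike in the lines.

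The lines were then compared with each other, with LPS as a block, so that the control and the LPS library of a line stand in for its replicates and the p-values do not measure the spread between cultures. HT29 had more RNA of SQLE, of several late sterol enzymes, of INSIG2 and of the enzymes that finish prenylated proteins. HCT116 had more of MVD, TM7SF2, FNTA and FNTB. Of the 34 genes, edgeR called 19 as higher in HT29 (38% of all genes) and 7 as lower (38.6%), at an adjusted p under 0.05. DESeq2 called 16 and 8 (34.2% and 35.8%). The median absolute log2 difference was 0.41, beside 0.76 over all genes tested, and the signed median was 0.26. The CPM of the lines did not overlap for 20 genes higher in HT29 and 9 lower (43.4% and 44.3%).

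**Figure D4:**
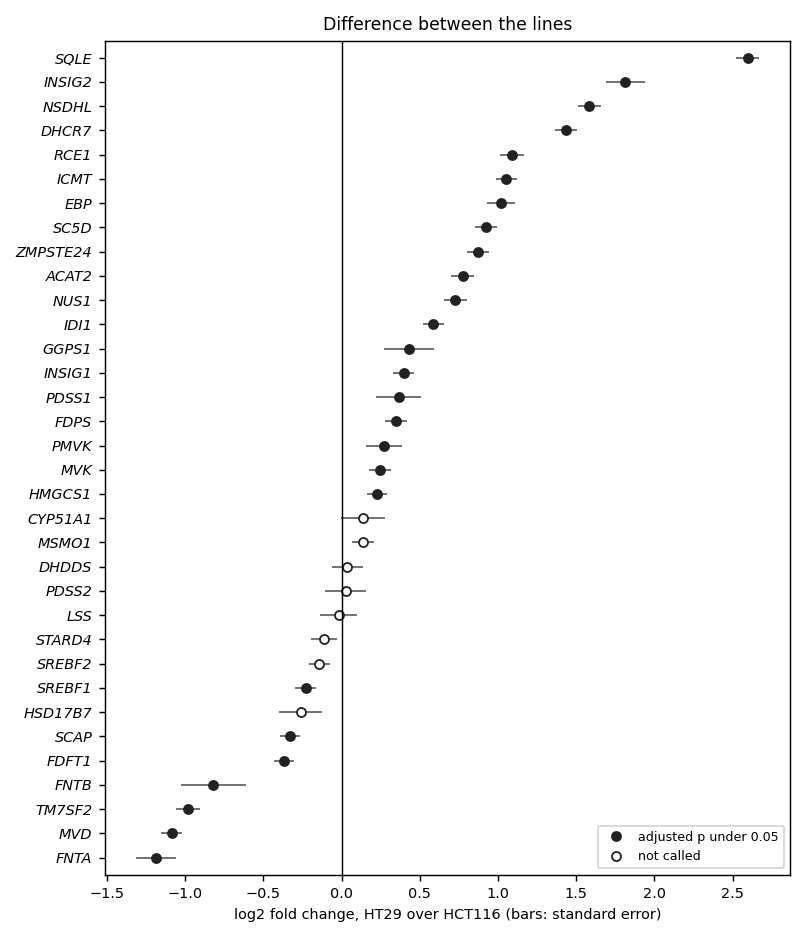
Log2 fold change of HT29 over HCT116 for each of the 34 genes, in order of size, with standard errors as bars, from edgeR's quasi-likelihood test over the 4 libraries. Filled points are genes with an adjusted p under 0.05, from SQLE at 2.60 to FNTA at -1.19, and open points are the 8 genes that were not called.

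SQLE differed most. Its CPM of 1077 and 981 in HT29 against 181 and 159 in HCT116 gave a log2 difference of 2.60 ± 0.073 (SE), or 6.05-fold (adjusted p = 2.66e-17 by edgeR). SQLE made up 19.3% and 18.6% of the counts of the 34 genes in HT29 and 4.69% and 4.28% in HCT116. The 34 genes together came to 5578 and 5277 CPM in HT29 and 3868 and 3715 in HCT116, and without SQLE to 4501 and 4296 against 3686 and 3556.5. The sum was thus higher in both HT29 libraries with and without it.

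Other enzymes from lanosterol to cholesterol were also higher in HT29. NSDHL had 133 and 136 CPM against 41.6 and 48.2, a log2 difference of 1.58 ± 0.075. DHCR7 had 648 and 653 CPM against 223 and 259, a difference of 1.43 ± 0.072 (2.70-fold). EBP was higher in HT29 by a log2 difference of 1.02 and SC5D by 0.92. The libraries of the lines did not overlap for any of these 4, as for 43.4% of all genes in this direction. Of the 8 enzymes of this branch edgeR called 4 as higher in HT29, beside 38% of all genes. TM7SF2 went against them, with 56.0 and 47.8 CPM in HT29 and 103 and 102 in HCT116, or 1.97-fold higher in HCT116. MSMO1, CYP51A1 and HSD17B7 were not called, with log2 differences of 0.14 ± 0.069, 0.14 ± 0.14 and -0.26 ± 0.14.

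The early enzymes differed less, with 1 exception. MVD had 121 and 109 CPM in HT29 and 254 and 234 in HCT116, a log2 difference of -1.09 ± 0.065 (2.12-fold higher in HCT116, adjusted p = 5.63e-12 by edgeR). ACAT2 was 1.71-fold higher in HT29, and IDI1 was higher by a log2 difference of 0.59. HMGCS1, MVK, PMVK, FDPS and GGPS1 were higher in HT29 by 1.17-fold to 1.35-fold, and GGPS1 is uncertain because of its exon overlap. FDFT1 was 1.29-fold higher in HCT116, and LSS showed no difference that the test could call, at -0.02 ± 0.12. With library size alone in place of TMM, HMGCS1, MVK, PMVK, GGPS1 and the ubiquinone enzyme PDSS1 were no longer called.

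Among the genes of SREBP control, INSIG2 stood out in HT29, with 44.8 and 42.0 CPM against 12.8 and 11.9 in HCT116, a log2 difference of 1.82 ± 0.12 (3.52-fold, adjusted p = 3.75e-11 by edgeR). INSIG1 was 1.32-fold higher in HT29. SREBF1 and SCAP were higher in HCT116 by 1.17-fold and 1.26-fold. SREBF2 had a log2 difference of -0.14 ± 0.065, which edgeR did not call (adjusted p = 0.056) and DESeq2 did (0.00071).

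In the branch to prenylated proteins the subunits of the transferase and the enzymes that act after it differed in opposite directions. FNTA had 15.5 and 15.3 CPM in HT29 and 36.9 and 33.4 in HCT116 (2.28-fold higher in HCT116), and FNTB 5.32 and 6.35 against 10.2 and 10.3 (1.76-fold). RCE1, which cleaves the end of a prenylated protein, had 89.5 and 89.2 CPM in HT29 and 43.0 and 41.0 in HCT116 (2.13-fold higher in HT29). ICMT, which methylates it next, had 289 and 273 against 136 and 135 (2.08-fold), and ZMPSTE24 was 1.83-fold higher in HT29. Exons of other genes cover 49.3% of those of FNTB and a smaller part of those of RCE1. NUS1 was 1.66-fold and PDSS1 1.29-fold higher in HT29, while DHDDS, PDSS2 and STARD4 were not called.

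Marker genes of other cell types moved with the line. The summed counts of 5 leukocyte markers reached 18533 and 20717 in HT29 but only 6 and 11 in HCT116, nearly all of them LYZ, while CD3E was at 0 in all libraries and PTPRC had at most 2 counts. The 4 fibroblast markers summed to 84 and 66 in HT29 and 2253 and 2042 in HCT116, nearly all COL1A1, with COL1A2 at 0 in all libraries. The 3 endothelial markers summed to between 32 and 53 with CDH5 at 0. Their part in the differences between the lines was not tested.

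Genes next to the pathway were taken from 5 further lists. Their median log2 ratios with LPS ran from -0.12 to 0.05 in HT29 and from -0.05 to 0.07 in HCT116. In the test over both lines, edgeR and DESeq2 called 0 of them, and 1 gene, the sterol carrier NPC2, had an unadjusted p under 0.05 by edgeR. Between the lines, the fatty acid targets of SREBP had 6 of 11 genes lower in HT29 and 1 higher, where edgeR called 38.6% of all genes as lower and 38% as higher. FADS1, a fatty acid desaturase, had 5.55 and 6.35 CPM in HT29 against 166 in both HCT116 libraries, a 27.9-fold difference (adjusted p = 1.31e-19 by edgeR). FADS2, a further desaturase, had 8 and 10 counts against 694 and 660, or 65.1-fold. ELOVL5, an elongase of polyunsaturated fatty acids, had 0 and 5 counts against 1929 and 1688. These 3 genes were lower in both HT29 libraries than in any HCT116 library, as were 44.3% of all genes. ACSS2, which makes cytosolic acetyl-CoA, was 3.07-fold lower in HT29 too.

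In the list of cholesterol uptake, storage and export, 7 of 14 genes were higher in HT29 and 3 lower, beside the same 38% and 38.6% of all genes. SOAT1, which esterifies cholesterol for storage, had 3.11 and 1.51 CPM in HT29 and 42.8 and 43.6 in HCT116 (19.1-fold higher in HCT116). GRAMD1A, a sterol transporter of membrane contact sites, was 6.51-fold higher in HCT116. ABCG1, a sterol exporter, was 8.72-fold higher in HT29, with 214 and 254 counts against 21 and 41. Of 11 genes of SREBP processing and sterol sensing, 6 were higher and 3 lower in HT29, of 14 further prenyl, dolichol and ubiquinone genes 7 and 4, and of 6 other sterol enzymes 3 and 1. With so few genes in a list, these counts are not read as apart from the shares over all genes. TMEM97, a sterol-binding membrane protein, was 2.36-fold higher in HT29 and the SREBP regulator PAQR3 2.35-fold higher in HCT116. DPAGT1, the first glycosyltransferase on dolichol, was 3.30-fold higher in HT29. SULT2B1, which sulfates cholesterol, had 1621 and 1679 counts against 45 and 47 and was 40.9-fold higher in HT29.

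**Figure D5:**
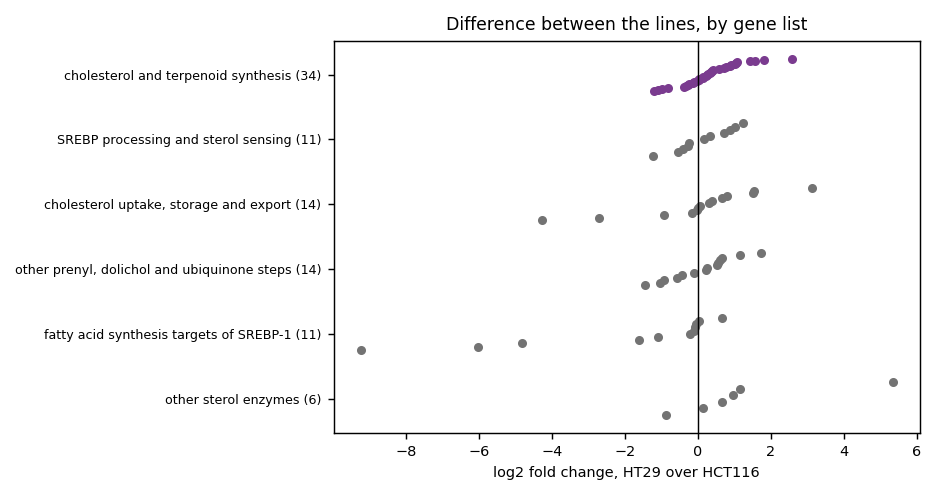
Log2 fold change of HT29 over HCT116 for the 34 genes (purple) and for 5 lists of neighbouring genes (grey), 1 point per gene with the number of genes in brackets. The 34 genes lie between -1.19 and 2.60, while the list of uptake, storage and export reaches farther on both sides, that of fatty acid targets farther to the left and that of other sterol enzymes farther to the right. The point at -9.24 is ELOVL5, which had 0 and 5 counts in HT29.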

How the data were processed

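RNA of HT29 and HCT116, each as 1 control and 1 LPS library, was sequenced by the authors with 150 bp paired-end reads from a NEBNext Ultra RNA kit. The deposited values are raw counts per gene. By the account of the study and of the submitters' processing notes, reads were cleaned (cutadapt 1.9 and Trimmomatic 0.39 are named), aligned to hg38 with HISAT2 2.1.0 and counted on GENCODE genes with featureCounts 2.0.1. Whether counting used strand, how it treated multi-mapped reads and which annotation release it used: not given in the sources used here. Symbols and positions were taken from GENCODE 44.

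The 34 genes, the marker lists and the 5 lists of neighbouring genes were chosen with earlier results of these data known. Total counts of 19105058 to 21268959 give the narrow counting intervals of abundant genes and wide ones below 20 CPM. Within a line, the log2 ratio of TMM-normalized CPM (prior count 2) was computed where the line's mean reached 1 CPM, with exact 95% Clopper-Pearson intervals of the count ratio without the prior count. The size threshold of 0.58 is the one the study used for its microarrays. Over the 4 libraries, edgeR's quasi-likelihood test (edgeR 4.0.16, limma 3.58.1, R 4.3.3) was fitted to 14516 genes whose mean reached 1 CPM, with Benjamini-Hochberg adjustment at 0.05 over all of them. It was fitted for LPS with the line as a block and for the line with LPS as a block, each with 1 residual degree of freedom. Standard errors were derived from the F statistic. Copies were sought with minimap2, as matches over at least 50% of a transcript at 98% identity. The methods were tested on simulated counts, with the same spread for every gene in the tests and counting error alone for the intervals. Such counts cannot show how far cultures differ. Alternatives tried were the normalization (library size alone, size factors of DESeq2 1.42.0, or TMM separately per line), DESeq2 as the test, a prior count of 0.5 or 5, the filter (none, or 5 CPM), a threshold of 1, mitochondrial genome genes or genes with a copy left out, no block, and trends with length and GC content removed (mgcv 1.9.3).

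All 34 genes may be named. Full values were planned for those called in a test and for the 6 with the largest LPS ratio in each line. They were also planned for the 10 with the largest difference between the lines. Of each neighbouring list, up to 3 genes were planned for each of LPS and line. Some genes, such as MVK, PDSS1 and PDSS2, were given only in part. NPC2, FASN and SCD were named after their values were seen.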

Additional observations from a re-analysis of the deposited data

Results flagged for a closer look

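In 5 genes of the neighbouring lists the counting intervals of the LPS ratio lay on opposite sides of 0 in the lines, as they did in 4.45% of all genes, and how far the lines differ was not tested. ERLIN2, an endoplasmic reticulum protein that binds the sterol sensors, had a log2 ratio of 0.25 in HT29 and -0.23 in HCT116. COQ7, a hydroxylase of ubiquinone synthesis, had 0.18 in HT29 and -0.42 in HCT116. ACACA, the acetyl-CoA carboxylase of fatty acid synthesis, had -0.62 in HT29 and 0.60 in HCT116, and has a copy at 100% identity on an alternate contig, so its values are uncertain. FASN, the fatty acid synthase, had 0.11 in HT29 and -0.11 in HCT116. SCD, the stearoyl-CoA desaturase, had 0.11 in HT29 and -0.070 in HCT116. These 2 were the most abundant genes of the neighbouring lists in CPM, so that their counting intervals are narrow around small ratios.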

How the results depend on the processing

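The medians of the 34 genes stayed below 0 under every alternative run, from -0.09 to -0.07 in HT29 and from -0.14 to -0.11 in HCT116, and no gene passed 0.58 under any of them. With length and GC trends removed, the HCT116 ratio moved from -0.12 to -0.19 for MVD and from 0.21 to 0.15 for DHCR7. For SREBF1 it moved from 0.08 to 0.01 and for SREBF2 from -0.02 to -0.09. The HT29 ratio of SREBF1 moved from 0.15 to 0.09. In the test over both lines, the count of genes called lower moved from 0 to 1 with DESeq2 and to 3 with a minimum of 5 CPM. SCAP, at -0.0043, turned to 0.0031 with DESeq2, 0.00049 with mitochondrial genome genes left out and 0.00056 without the block. Between the lines, library size alone turned CYP51A1 to -0.016, MSMO1 to -0.016, DHDDS to -0.11 and PDSS2 to -0.12, and leaving out the block turned LSS to 0.0042. Library size alone lost HMGCS1, MVK, PMVK, GGPS1 and PDSS1 and gained HSD17B7, SREBF2 and STARD4, while DESeq2 lost PMVK, GGPS1 and PDSS1 and gained SREBF2. No filter lost PMVK, and SREBF2 was gained with mitochondrial genome genes left out. Over all genes, 462 above and 356 below 0.58 in HT29 became 4966 and 3904 with no filter, 60 and 73 with a minimum of 5 CPM and 136 and 83 at a threshold of 1. In HCT116, 510 and 336 became 3884 and 3674, 73 and 42, and 119 and 89. The test over both lines called 18 higher and 14 lower genes of all, against 45 and 36 with DESeq2, 6 and 8 with its size factors, 58 and 45 with no filter, 78 and 58 with a minimum of 5 CPM, 22 lower with mitochondrial genome genes left out, and 0 and 0 without the block. The causes were not tested. Replicates could not be paired within a line, because every library carries the same replicate number, 1, and each condition has 1 library. The test over both lines, with the line as a block, sets each LPS library against the control of its own line. Leaving out a library was not possible, since the tests would keep no residual degree of freedom. In each line, the interval of every member with a mean under 20 CPM included 0.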
